A study of Mus musculus with 6 samples.

Results

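Krüppel-like factors (KLF) and early growth response factors (EGR) are families of zinc-finger transcription factors, and 10 of their genes were followed here: Klf2, Klf4, Klf5, Klf6, Klf9, Klf10, Klf15, Egr1, Egr2 and Egr3. They were taken by symbol from the 22183 genes of the deposited table, with earlier results of these data known. All 10 were found and all 10 had enough reads to be tested. RNA came from mouse kidney in 6 libraries. The control group is 3 kidney libraries labelled as having received the empty vector pcDNA3. The Wnt1 group is 3 kidney libraries labelled as overexpressing Wnt1 after a Wnt1 plasmid. All 6 were treated here as 1 batch. The labels give no strain, sex, age, injury procedure or time after the plasmid, and do not say which cells took it up. Whether each library came from its own animal is not said either; the p-values below therefore rest on differences between libraries that may be technical.

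KLF proteins bind GC-rich and CACCC elements through zinc fingers at their carboxyl end, and EGR proteins bind a related GC-rich site through a like set of fingers. EGR genes are immediate early genes: growth factor and stress signals switch them on within minutes through ERK kinases acting on serum response factor at CArG boxes. The KLF genes divide by use: Klf2 and Klf4 answer blood flow in endothelium, Klf15 and Klf9 are induced by glucocorticoids, Klf10 is an early gene of TGF-beta, and Klf5 and Klf6 are known in proliferating or injured epithelium.

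Library totals ran from 23585020 to 27218085 expected counts. Wnt1 itself was counted 0 times in each control library and 0, 1 and 0 times in Wnt1 replicates 1, 2 and 3, so this gene did not check the labels at this depth. The kidney markers Slc34a1 (phosphate transporter of the proximal tubule) and Umod (uromodulin of the thick ascending limb) were abundant in each library, at 851 CPM or more and 1840 CPM or more. CPM is the count of a gene relative to the library total, with TMM factors for library composition. Control replicate 3 and Wnt1 replicate 3 stood apart from the other 4 libraries on the second principal component, which held 14.7% of the variance (scores -29.0 and -50.1, against 16.2 to 22.1).

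Egr2, Egr3, Klf6, Klf5, Klf10 and Klf4 were higher with the Wnt1 plasmid, and Klf15 was lower. A gene is called here at an edgeR adjusted p under 0.05. Of the 10 members, 6 were called higher and 1 lower, while 22.4% of the 14432 tested genes were called higher and 18.7% lower. All 6 rises were at least 2-fold. Klf2, Klf9 and Egr1 were not called. In TMM-scaled CPM, the control and Wnt1 libraries did not overlap for 8 of the 10 members, as was the case for 53.5% of tested genes. Overlap depends on the scale for Klf9 and Egr1: in the authors' FPKM, Klf9 overlapped and Egr1 did not. The median log2 fold change was 1.23 over the members and 0.05 over all tested genes. Scaled by library totals alone, which moved the median of all genes to 0.47, the members called were 7 higher and 1 lower. No member changed sign, and 6348 of the 14432 tested genes were then called higher and 1288 lower. With both libraries numbered 3 left out, 7 members were called higher and 3 lower. In that setting 4664 of 14563 tested genes were called higher and 4432 lower.

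**Figure D1:**
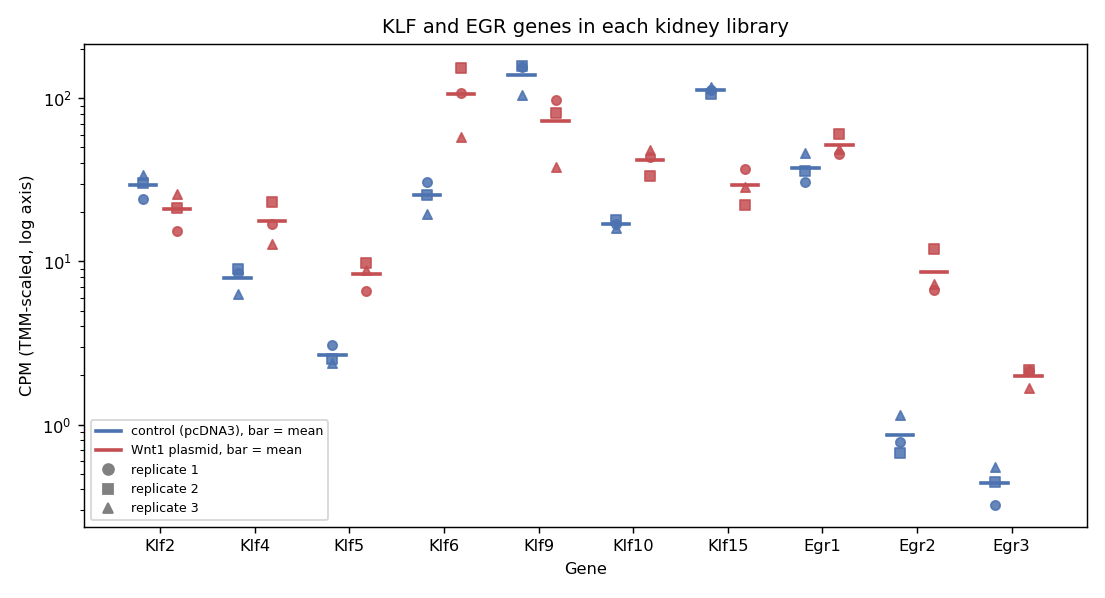
Level of each gene in each library, in TMM-scaled CPM on a log axis, with blue for control (n = 3), red for Wnt1 (n = 3), a marker shape for each replicate and a bar for the group mean. The Wnt1 libraries lie wholly above control for Egr2, Egr3, Klf4, Klf5, Klf6 and Klf10, wholly below for Klf15 and Klf9, and overlap control for Klf2 and Egr1.

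Promoter sequences of 3 members are shown because these members moved in different directions and hold letters that match the CArG box or the EGR site. RefSeq windows (GRCm38.p6) were used here for 6 members: Klf2, Klf4, Klf6, Klf9, Klf15 and Egr2. Promoters of the other members were not searched, so nothing is stated about sites in them. The 250 bases before each start were searched on both strands for the CArG box, the EGR site GCGNGGGCG, the GC box GGGCGG, the CACCC element, the cyclic AMP response core TGACG and the E-box CACGTG; GC boxes and EGR sites can overlap. Each sequence below runs 5′ to 3′ along the gene. Egr2 rose; its window is chr10:67537316-67537565, plus strand, and the capitals mark a CArG box. Klf4 rose; its window is chr4:55532476-55532725, minus strand, and the capitals mark 2 EGR sites in reverse. Klf15 fell; its window is chr6:90462326-90462575, plus strand, and the capitals mark an EGR site.
Egr2: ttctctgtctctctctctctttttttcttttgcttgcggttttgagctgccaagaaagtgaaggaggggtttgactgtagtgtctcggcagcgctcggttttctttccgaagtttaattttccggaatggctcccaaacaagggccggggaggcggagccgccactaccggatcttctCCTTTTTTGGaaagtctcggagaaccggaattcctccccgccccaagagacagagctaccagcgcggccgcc
Klf4: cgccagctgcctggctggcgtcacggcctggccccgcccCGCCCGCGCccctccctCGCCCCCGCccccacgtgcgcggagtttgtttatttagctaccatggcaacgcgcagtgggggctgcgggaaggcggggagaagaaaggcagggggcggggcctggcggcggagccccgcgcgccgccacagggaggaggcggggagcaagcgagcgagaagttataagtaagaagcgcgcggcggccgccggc
Klf15: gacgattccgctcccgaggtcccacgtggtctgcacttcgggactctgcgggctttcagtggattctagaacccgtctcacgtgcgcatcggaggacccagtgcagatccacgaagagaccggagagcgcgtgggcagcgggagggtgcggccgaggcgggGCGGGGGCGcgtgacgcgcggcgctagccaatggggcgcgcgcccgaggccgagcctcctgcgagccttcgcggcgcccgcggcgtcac

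The CArG box of Egr2 in that window begins 72 bases before the start, and the window of a further Egr2 start held another, CCATATATGG, also 72 bases before it; 2 further, overlapping windows hold that same box. A CArG box was in 1.47% of the 32851 windows of this length and in none of the windows of Klf2, Klf4, Klf6, Klf9 and Klf15. That share is per window, and Egr2 had 5 windows where each of the other members had 1. The Egr2 window that spans the annotated gene start, chr10:67535249-67535498, held no CArG box. An EGR site was in 4.70% of all windows and stood in those of Klf15 (89 bases before the start), Klf2 (199) and Klf4 (211 and 194). G and C made up 72%, 71.2% and 74% of these windows, and 54% to 71.2% of the member windows without an EGR site. The share over all windows was not matched for this content. The EGR site of Klf15 overlaps a GC box. Klf15 also held 2 E-boxes, 228 and 172 bases before the start, where 6.02% of windows held any, and Klf4, Klf6 and 1 of the 5 Egr2 windows held 1 each, at 182, 43 and 27 bases. GC boxes were in 32.7% of windows, CACCC in 52.0% and TGACG in 17.8%. Among the searched members, GC boxes stood in windows of Egr2, Klf2, Klf4, Klf6 and Klf15, but not of Klf9. CACCC stood in windows of Egr2, Klf2, Klf9 and Klf15, and TGACG in those of Egr2, Klf2, Klf4, Klf9 and Klf15. These matches describe letters only, and binding was not measured.

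Egr2, a myeloid, lymphoid and Schwann cell regulator, had the largest fitted rise of the 10. It was measured at 0.782, 0.665 and 1.14 CPM in control replicates 1, 2 and 3 and at 6.66, 11.9 and 7.25 CPM in Wnt1 replicates 1, 2 and 3. The lowest Wnt1 library was well above the highest control. The log2 fold change (Wnt1 over control, ± standard error) was 3.31 ± 0.34, about 9.94-fold, with an edgeR adjusted p of 0.00022; 98.0% of tested genes had a log2 fold change at or below it. The control values rest on 15 to 25 counts per library and the Wnt1 values on 191 to 337. On GRCm38, Egr2 lies on chromosome 10, 67535475 to 67542188 (ENSMUSG00000037868).

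Egr3, an EGR factor known from muscle spindles and activated lymphocytes, was scarce in both groups. It stood at 0.322, 0.443 and 0.548 CPM in control and at 2.12, 2.16 and 1.67 CPM with Wnt1, on 7 to 12 and 44 to 67 counts. The groups did not overlap, and the log2 fold change was 2.17 ± 0.32 (edgeR adjusted p = 0.00114). Egr3 lies on chromosome 14, 70077203 to 70082614 (ENSMUSG00000033730).

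Egr1, the most abundant of the EGR genes here and the usual readout of ERK signalling, was not called. Control libraries held 30.5, 35.8 and 46.5 CPM and Wnt1 libraries 45.8, 60.8 and 48.9 CPM. Control replicate 3 was slightly above Wnt1 replicate 1, so the groups overlapped in CPM. In FPKM they did not, with control replicate 3 at 10.9 and Wnt1 replicate 1 at 14.3. The log2 fold change was 0.46 ± 0.19 (95% interval 0.02 to 0.90; edgeR adjusted p = 0.0875). Without control replicate 3 it was called, at 0.74 (adjusted p = 0.0293), and with library totals at 0.89 (adjusted p = 0.0066); over all alternatives the adjusted p ran from 0.0066 to 0.263. Egr1 lies on chromosome 18, 34859823 to 34864984 (ENSMUSG00000038418). No test was made of whether Egr1 differed in response from Egr2 or Egr3.

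Klf6, an early-response factor of injured tissue, had the largest fitted rise of the 7 KLF members. Control replicates 1, 2 and 3 held 30.9, 25.7 and 19.6 CPM, and Wnt1 replicates held 108, 154 and 58.0 CPM. The groups did not overlap, and replicate 3 was the lowest of each group. Its log2 fold change was 2.07 ± 0.35, about 4.19-fold (edgeR adjusted p = 0.0027). It was 2.36 without Wnt1 replicate 3 and 1.71 without Wnt1 replicate 2. Klf6 lies on chromosome 13, 5861482 to 5870394 (ENSMUSG00000000078).

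Klf5, which drives proliferation in epithelia and is known in the collecting duct, was low in control at 3.08, 2.53 and 2.37 CPM. With Wnt1 it stood at 6.56, 9.77 and 8.84 CPM. The lowest Wnt1 library was above every control library. That is a log2 fold change of 1.66 ± 0.23, about 3.15-fold (edgeR adjusted p = 0.000874). Klf5 lies on chromosome 14, 99298691 to 99315036 (ENSMUSG00000005148).

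Klf10, the TGF-beta-inducible early gene, had the smallest control spread relative to its mean of the members that rose. They were 17.0, 17.9 and 16.1 CPM, against 43.7, 33.4 and 48.2 CPM with Wnt1. The groups were far apart, with a log2 fold change of 1.3 ± 0.17 or 2.46-fold (edgeR adjusted p = 0.00063). Klf10 lies on chromosome 15, 38291463 to 38300706 (ENSMUSG00000037465).

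Klf4, a factor of barrier epithelium, endothelium and macrophages, was measured at 8.51, 8.95 and 6.30 CPM in control and at 17.0, 23.2 and 12.8 CPM with Wnt1. Replicate 3 was again the lowest in each group in CPM, and the groups did not overlap. In FPKM, control replicates 1, 2 and 3 stood at 2.47, 2.63 and 2.49, so replicate 3 was not the lowest control there. Klf4 had a log2 fold change of 1.16 ± 0.25, about 2.23-fold (edgeR adjusted p = 0.00747). Klf4 lies on chromosome 4, 55527143 to 55532466 (ENSMUSG00000003032).

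Klf15, a glucocorticoid-responsive regulator of amino acid breakdown that also maintains podocyte differentiation, was the only member that edgeR with TMM scaling called lower. Control libraries held 113, 106 and 117 CPM and Wnt1 libraries 36.8, 22.3 and 28.8 CPM. The highest Wnt1 library was far below the lowest control. The log2 fold change was -1.94 ± 0.19, a level 3.83-fold lower (edgeR adjusted p = 0.000205), and 1.75% of tested genes had a log2 fold change at or below it. With library totals it was -1.52 (adjusted p = 0.000488; range over the alternatives 1.50e-18 to 0.00253). Klf15 lies on chromosome 6, 90462576 to 90475238 (ENSMUSG00000030087).

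Klf9, a glucocorticoid- and thyroid hormone-responsive factor, missed the threshold. Control libraries held 155, 158 and 105 CPM and Wnt1 libraries 97.9, 81.2 and 38.1 CPM. The groups did not overlap in CPM, with control replicate 3 slightly above Wnt1 replicate 1. In FPKM they overlapped, with control replicate 3 at 19.9 and Wnt1 replicates 1 and 2 at 25.3 and 21.6. Replicate 3 was the lowest of each group: control replicate 3 was at 0.672 times the mean of replicates 1 and 2, and Wnt1 replicate 3 at 0.426 times. The log2 fold change was -0.94 ± 0.34 (95% interval -1.73 to -0.16; edgeR adjusted p = 0.057). Klf9 was called lower without Wnt1 replicate 3 (-0.64; adjusted p = 0.0314), without Wnt1 replicate 1 (-1.22; 0.0405) and without both libraries numbered 3 (-0.81; 0.000362), and by DESeq2 (-0.96; 0.00914). With library totals it was -0.52 (adjusted p = 0.253; range over the alternatives 0.000362 to 0.26). Klf9 lies on chromosome 19, 23141226 to 23168134 (ENSMUSG00000033863), and the microRNA gene Mir1192 lies within it on the same strand, outside its exons.

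Klf2, the flow-induced factor of endothelium that also keeps T cells quiescent, was not called. Control libraries held 24.2, 30.1 and 33.7 CPM and Wnt1 libraries 15.4, 21.3 and 25.8 CPM, and the groups overlapped. Klf2 had a log2 fold change of -0.49 ± 0.22 (95% interval -1.0 to 0.01; edgeR adjusted p = 0.106). Without Wnt1 replicate 3 it was called, at -0.68 (adjusted p = 0.0247), and with library totals it was -0.07 (adjusted p = 0.774, the highest of the alternatives, which went down to 0.00794). Klf2 lies on chromosome 8, 72319033 to 72321656 (ENSMUSG00000055148). All 10 members are annotated as protein coding, and no exon of another gene overlapped their exons.

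**Figure D2:**
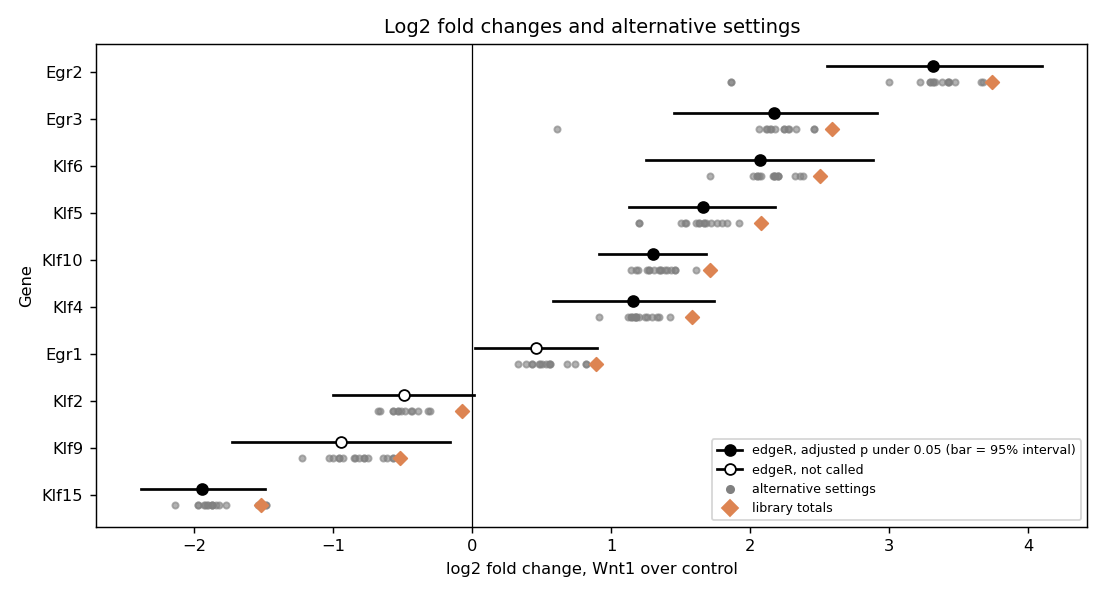
Log2 fold change of each gene, Wnt1 over control (n = 3 each): large circles with 95% intervals are the edgeR values, filled where called and open where not, and grey dots and orange diamonds are the alternative settings and library totals. The library-total values lie to the right of the TMM values for each gene. No gene has point values on both sides of 0, while the 95% interval of Klf2 reaches 0.01. The grey dots set far left for Egr2 and Egr3 are on the log2(FPKM + 1) scale.

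The order of levels per transcript length, in the authors' FPKM, differed between the groups. In control libraries Klf15 ranked the highest of the 10 (41.0 ± 1.86 FPKM, SD, n = 3), followed by Klf9 (26.9 ± 6.09), Klf2 (13.7 ± 2.02) and Egr1 (8.93 ± 1.78). Klf10 (5.33 ± 0.187) and Klf6 (5.22 ± 1.25) came next and could not be ordered, since their libraries overlapped. Klf4 (2.53 ± 0.0912), Klf5 (0.688 ± 0.110), Egr2 (0.281 ± 0.103) and Egr3 (0.0977 ± 0.0260) closed the order. Apart from Klf10 and Klf6, no neighbours in the control order overlapped.

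With Wnt1, Klf6 had the highest mean (29.6 ± 14.2 FPKM), but the upper part of the order could not be resolved. Klf9 (18.8 ± 8.27), Egr1 (16.6 ± 3.19), Klf10 (16.5 ± 2.32), Klf15 (14.3 ± 3.49) and Klf2 (13.0 ± 3.05) followed, and each of these overlapped the next above it. Klf4 (7.10 ± 1.82) lay below them, Egr2 (3.79 ± 1.59) overlapped Klf5 (2.90 ± 0.601), and Egr3 (0.682 ± 0.0726) was lowest. Klf15 and Klf9 together with Klf2 made up 39.2%, 25.7% and 13.1% of the summed mean FPKM of the 10 in control, and 11.6%, 15.2% and 10.6% with Wnt1; Klf6 went from 4.98% to 24%. The summed FPKM of the 7 KLF genes was 99.1, 97.4 and 89.6 in control and 109, 117 and 81.1 with Wnt1. These sums overlapped on the FPKM scale. For the 3 EGR genes the sum was 7.65, 8.89 and 11.4 in control and 17.7, 26.5 and 19.0 with Wnt1, with no overlap. FPKM are scaled by library total, without the TMM factors (0.848 to 0.879 in control, 1.12 to 1.19 with Wnt1). Applying these factors would raise the control sums and lower the Wnt1 sums. The sums were compared on the FPKM scale only, and TMM-scaled sums were not formed.

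**Figure D3:**
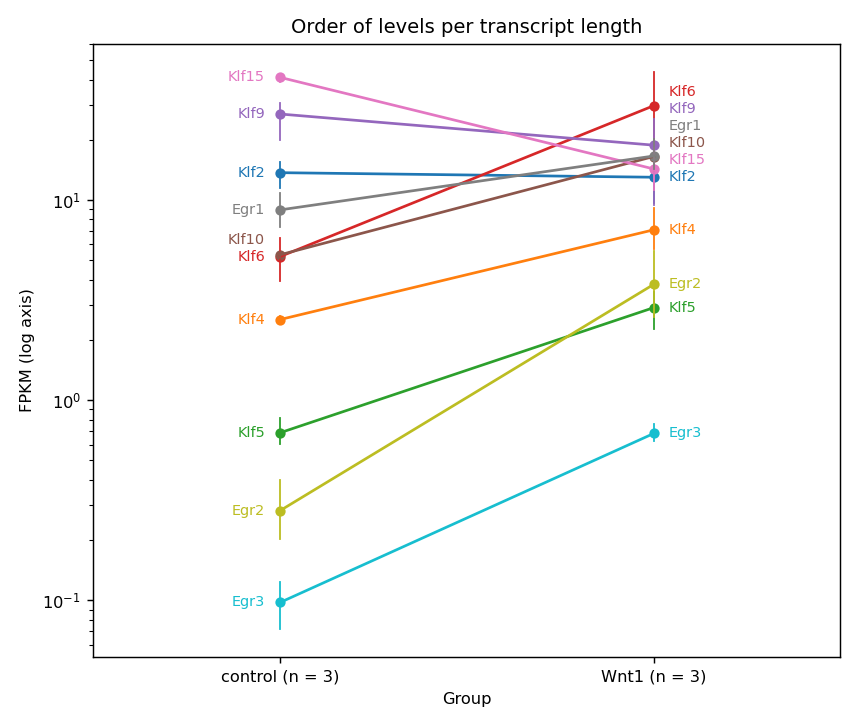
Mean FPKM of each gene in control and Wnt1 libraries (n = 3 each) on a log axis, with vertical lines from the lowest to the highest library. Klf15 leads in control at 41.0 FPKM, while with Wnt1 the means of 6 genes lie between 13.0 and 29.6 FPKM.

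The members also varied within groups. Klf6, Klf9 and Klf4 were low in the libraries numbered 3: Klf6 was at 0.693 times the mean of the other control libraries and 0.444 times the mean of the other Wnt1 libraries, and Klf4 at 0.722 and 0.637 times. Klf2 was higher in these libraries, at 1.24 and 1.41 times. Egr1, Egr2 and Egr3 were at 1.40, 1.58 and 1.43 times in control replicate 3, and at 0.918, 0.780 and 0.779 times in Wnt1 replicate 3. Klf15 was near its group mean in both (1.07 and 0.974). These are CPM ratios of 1 library to 2 others, with no test. In FPKM, Klf4 was not lowest in control replicate 3.

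Some other genes of the same families were called. For these and the later lists, the shares over all 14432 tested genes were 22.4% called higher and 18.7% lower. With library totals, 6348 of the 14432 were called higher and 1288 lower. Without both libraries numbered 3, 4664 of 14563 were called higher and 4432 lower. Of 10 further KLF genes, 8 were tested, and 3 were called higher and 1 lower (median log2 fold change 0.28). Klf11, a close relative of Klf10 (0.82 ± 0.21), Klf7 (0.75 ± 0.23) and the scarce Klf8 (2.2 ± 0.42, from 0.212 ± 0.0721 to 0.982 ± 0.260 CPM) rose, and Klf1, the erythroid KLF, fell (-1.55 ± 0.34, from 3.31 ± 0.524 to 1.13 ± 0.440 CPM). Library totals gave 6 higher and 1 lower. Of the SP factors, the sister family that binds GC boxes, 6 were tested and Sp5, a Wnt/beta-catenin target in embryos, was called lower (-1.04 ± 0.22, from 17.5 ± 2.77 to 8.51 ± 2 CPM), with 0 called higher by edgeR and 2 by edgeR with library totals. In the 4 libraries other than those numbered 3, the calls were 4 higher and 2 lower for the KLF genes, and 3 higher and 1 lower of 7 tested SP genes. Whether either family differed from the 10 members was not tested.

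The cofactors of EGR proteins and their upstream activators mostly missed the threshold. Of this list 25% were called higher, near the 22.4% of all tested genes. Among 8 tested, the ternary complex factor Elk3 (0.59 ± 0.14; edgeR adjusted p = 0.01) and the actin-regulated coactivator of serum response factor Mrtfb (0.53 ± 0.13; 0.0117) rose and 0 fell, with a median of 0.21; library totals gave 6 higher, and the 4 libraries other than those numbered 3 gave 5. Named after their values were seen, the EGR corepressors Nab1 and Nab2 had log2 fold changes of 0.17 ± 0.28 and 0.25 ± 0.18, and serum response factor, Srf, -0.04 ± 0.16. In the ERK5 and MEF2 route that induces Klf2 and Klf4, 2 of 12 tested genes were called, both higher: Mapk7, which encodes ERK5 (0.89 ± 0.17), and the flow-sensing channel gene Piezo1 (0.68 ± 0.16). Library totals raised the count to 8. Leaving out both libraries numbered 3 also gave 8, with 1 called lower.

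Immediate early genes, the class to which the EGR genes belong, were largely higher: 17 of 26 tested rose and 1 fell (median 0.91). Maff, a small MAF factor, went from 2.49 ± 0.728 to 16.4 ± 0.944 CPM (2.72 ± 0.23; edgeR adjusted p = 0.000107). The AP-1 genes Fosl2 (1.94 ± 0.16) and Junb (1.74 ± 0.19) and the stress gene Ier5 (1.34 ± 0.13) rose with it. The gene that fell was Dusp1, a phosphatase that ends MAP kinase signals (-1.37 ± 0.22), named after its value was seen. Library totals gave 20 higher and 1 lower, and the 4 libraries other than those numbered 3 gave 19 and 1.

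Genes linked to KLF15 in muscle and liver, those of branched-chain and other amino acid breakdown, gluconeogenesis and glucose uptake, were lower in 11 of 12 tested, with 0 higher (median -1.3; 10 lower with library totals, 12 in the 4 libraries other than those numbered 3). Prodh, proline dehydrogenase, went from 298 ± 38.1 to 67.4 ± 14.8 CPM (-2.14 ± 0.19), Bckdha, of the branched-chain ketoacid dehydrogenase, from 490 ± 52.3 to 134 ± 30.7 CPM (-1.87 ± 0.19), and Aass, of lysine breakdown, from 551 ± 33.5 to 177 ± 26.8 CPM (-1.64 ± 0.15). Hpd, of tyrosine breakdown, had a log2 fold change of -5.53 ± 0.27. Proximal tubule markers were lower in the same libraries, in 9 of 10 tested with 0 higher; their summed level was 19300 to 20600 CPM in control and 4530 to 5800 CPM with Wnt1, and the part of this in the result was not tested. In bulk tissue, fewer cells of a type and less RNA per cell cannot be told apart.

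Glucocorticoid-induced genes, the class of Klf9 and Klf15, went both ways: 3 of 13 tested rose and 1 fell (median 0.15; 6 and 0 with library totals, 5 and 2 without the libraries numbered 3). Of this list 23.1% were called higher, near the 22.4% of all tested genes. Pdk4, a brake on glucose oxidation (1.35 ± 0.23), Ddit4, an inhibitor of mTOR signalling (1.41 ± 0.37), and the metallothionein Mt2 (1.33 ± 0.18) rose, and Errfi1, an inhibitor of EGF receptor signalling (-0.51 ± 0.12), fell. Clock genes gave 2 higher and 5 lower of 16 tested (median 0.07; 5 and 3 with library totals, 4 and 6 without the libraries numbered 3). The output factors Hlf (-1.23 ± 0.19), Tef (-0.97 ± 0.17) and Dbp (-0.96 ± 0.21), which like Klf9 and Klf10 cycle with the clock in many tissues, fell, and the repressor Cry1 (1.09 ± 0.16) rose.

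Genes linked to EGR1 as targets were higher in 11 of 14 tested, with 1 lower (median 1.29; 13 and 0 with library totals, 12 and 1 without the libraries numbered 3). The adhesion receptor Cd44 went from 3.08 ± 1.49 to 70.1 ± 15.3 CPM (4.51 ± 0.36), and the adhesion molecule Icam1 from 27.3 ± 1.42 to 88.9 ± 7.44 CPM (1.70 ± 0.13). Tnf was also called higher, at 1.68, 2.12 and 1.52 CPM with Wnt1, while each control library was under its floor of 3 counts, so no fold is given. The gene that fell was Vegfa, the endothelial growth factor (-0.62 ± 0.17), named after its value was seen. Among TGF-beta early response genes, the class of Klf10, 5 of 12 tested rose and 0 fell (median 0.66; 9 and 0 with library totals, 6 and 1 without the libraries numbered 3): these included the latency protein gene Ltbp2 (5.14 ± 0.32), Tgfb1 (1.26 ± 0.19) and its receptor gene Tgfbr2 (1.05 ± 0.15). Tgfb1 stands in both lists, and Icam1 also in the next.

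Vessel targets of KLF2 and KLF4 were mixed, with 5 higher and 2 lower of 9 tested (median 0.51; 5 and 1 with library totals). Vcam1, an adhesion molecule that these factors repress, went from 13.0 ± 1.29 to 306 ± 85.1 CPM (4.56 ± 0.24), and Edn1, endothelin, also repressed by them, from 1.28 ± 0.0917 to 16.5 ± 4.98 CPM (3.68 ± 0.28). The water channel gene Aqp1, which the proximal tubule also expresses, fell (-1.29 ± 0.19). Endothelial markers were lower in 7 of 12 tested, with 0 higher (median -0.56), in 1 of 12 with library totals and in 12 of 12 without both libraries numbered 3. Their summed level was 1070 to 1340 CPM in control and 680 to 988 CPM with Wnt1; the part of this in the values of Klf2 and Klf4 was not tested.

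**Figure D4:**
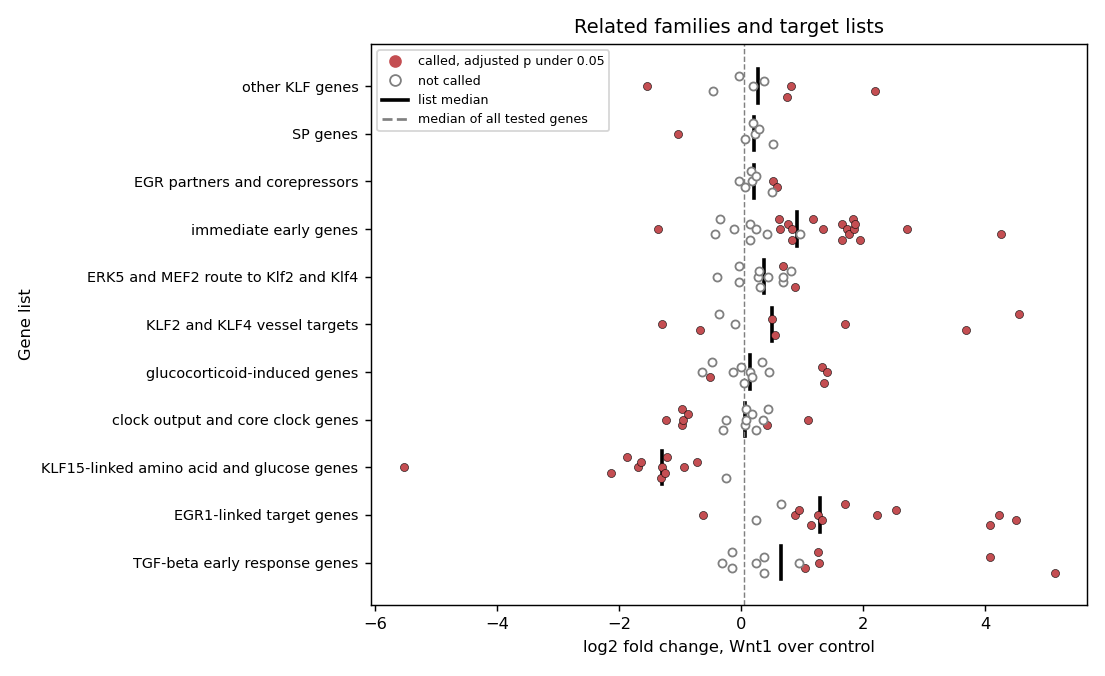
Log2 fold change of each tested gene in the related families and target lists, Wnt1 over control (n = 3 each), with red points for called genes, open points for the rest, black bars for list medians and a dashed line for the median of all tested genes (0.05). Amino acid and glucose genes linked to KLF15 lie to the left (median -1.3), and immediate early genes (0.91) and genes linked to EGR1 (1.29) to the right.

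Markers of other cells that express these factors moved in the same libraries. Macrophage markers were higher in 10 of 10 tested, with a summed level of 220 to 270 CPM in control and 1770 to 2150 CPM with Wnt1. T and NK cell markers were higher in 10 of 10 (15.7 to 18.3 against 56.5 to 77.0 CPM), 7 of 10 without both libraries numbered 3. Ptprc in this list, which other leukocytes also express, held 40.1, 48.9 and 14.8 CPM in Wnt1 replicates 1, 2 and 3. The list sums there were 68.9, 77.0 and 56.5 CPM. Neutrophil markers were higher in 5 of 5 (2.30 to 3.15 against 19.0 to 27.8 CPM). Fibroblast and mural markers were higher in 8 of 10, with 1 lower (451 to 571 against 1680 to 2710 CPM). Markers of urothelium and squamous epithelium, where Klf5 and Klf4 are active, were higher in 4 of 8 with 0 lower (12 to 23.4 against 51.6 to 64.7 CPM). The 4 were the keratins Krt5, Krt14, Krt15 and Krt20, and of the 4 uroplakins, which mark urothelium, edgeR called 0 (log2 fold changes -0.81 to 0.59). Krt20 alone stood at 0.414, 0.177 and 0.183 CPM in control and at 30.6, 33.7 and 20.8 CPM with Wnt1, and without it the summed levels overlapped (11.6 to 23.2 against 17.9 to 43.9 CPM). With both libraries numbered 3 left out, the calls were 4 higher and 2 lower. The part of these other cell types in the rises of Egr2, Egr3, Klf4, Klf5, Klf6 and Klf10 was not tested. None of these markers was at 0 in all 6 libraries.

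Collecting duct markers, the segment in which Klf5 is known, gave 0 higher and 3 lower of 9 (778 to 888 CPM in control and 338 to 690 CPM with Wnt1; 1 higher and 3 lower with library totals, 0 and 7 without both libraries numbered 3). Podocyte markers gave 1 higher and 3 lower of 9, with a median of 0.22 (718 to 786 and 598 to 722 CPM), and 5 higher and 1 lower with library totals (median 0.64). Markers of the thick ascending limb and distal tubule gave 0 higher and 6 lower of 8 (10500 to 11300 and 2790 to 4460 CPM). Erythroid markers, listed because Klf1 is erythroid, gave 0 higher and 1 lower of 6 (127 to 519 and 109 to 494 CPM). The gene called was Slc4a1 (-1.99 ± 0.27), which intercalated cells of the collecting duct also express and which is counted in that list too; the globin genes and Alas2 were not called (-0.42 to 0.23). For B cell markers the calls were 3 higher and 0 lower of 4 (9.56 to 12.1 and 29.9 to 53.6 CPM). Only 2 of 9 adipocyte, adrenal and skeletal muscle markers were tested, and 0 were called by edgeR, at a summed 3.03 to 5.72 CPM in control and 3.49 to 5.12 CPM with Wnt1. The part of these cells in the values of Klf5, Klf15 and Klf1 was not tested.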

How the data were processed

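Kidney RNA of 6 mouse libraries was compared, 3 control against 3 Wnt1. Trizol RNA was enriched on oligo(dT) beads and sequenced on an Illumina instrument, per the labels. The submitters' processing notes name fastp 0.18.0, Bowtie2 2.2.8, HISAT2, StringTie 1.3.1, RSEM and mm10; their roles, the gene annotation, strand use and the sharing of ambiguous reads: not given in the sources used here. Expected counts deposited by the authors are estimated reads per gene, and were rounded here (9.02% were not whole within 1e-06). The authors also deposited FPKM, scaled by transcript length and library total.

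Counts were fitted in R 4.3.3 with edgeR 4.0.16 (filterByExpr, TMM, robust quasi-likelihood test, two-sided, Benjamini-Hochberg over 14432 genes). Standard errors and 95% intervals were derived from the F statistic and hold nothing independent of the p-value. CPM use TMM factors of 0.848 to 1.19. Alternatives were DESeq2 1.42.0, other scalings and filters, limma 3.58.1 on FPKM, voom, and leaving out libraries. Gene lists are described by counts and medians. The members and lists were chosen with earlier results of these data known; named genes are the members, up to 4 called genes with the smallest p in each family or pathway list, and the 2 most abundant markers where a level is named. A gene named by this rule is not reported here. Coordinates are GENCODE M21 (GRCm38). The floor of 3 counts covers counting error only.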

Additional observations from a re-analysis of the deposited data

How the results depend on the processing

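No member changed sign under any of the 17 alternatives. The 6 members called higher and Klf15 stayed called in each alternative that tested them; Egr3 was not tested by limma on log2(FPKM + 1) or log2(FPKM + 0.1) with the FPKM filter, and without that filter its log2 fold change was 0.61. Members called lower numbered 2 with DESeq2, 3 with voom with quality weights, 3 without both libraries numbered 3, and between 1 and 3 when each library was left out. Klf2 was then called at -0.66 with voom (adjusted p = 0.00794) and at -0.57 without both libraries numbered 3, with values from -0.68 to -0.30 when 1 library was left out. Klf9 was called at -0.96 with DESeq2, -0.78 with voom and -0.81 without both libraries numbered 3, with values from -1.22 to -0.64 when 1 library was left out. Egr1 was called at 0.89 with library totals, 0.82 and 0.89 by limma on log2(FPKM + 1) and log2(FPKM + 0.1), 0.82 without the FPKM filter, 0.56 with voom and 0.68 without both libraries numbered 3, with values from 0.33 to 0.74 when 1 library was left out. The cause of these changes was not tested.

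Over all genes, 3239 were called higher and 2697 lower. Library totals gave 6348 and 1288, limma on log2(FPKM + 1) 5144 and 1238, on log2(FPKM + 0.1) 5139 and 1234, and without the filter 5949 and 1273; voom gave 4430 lower, and leaving out both libraries numbered 3 gave 4432 lower. Leaving out 1 library gave 2681 to 4165 higher and 1797 (without control replicate 2) to 3977 lower. Of 816 list counts over the alternatives, 679 were within 1.5 times the count reported. Unchanged counts are among the 679, also where no gene of a list was called in that direction. No paired analysis was possible because the numbers name libraries by record order and the sample titles of the groups share fewer than 2 numbers. Depth limits Egr3 and Egr2 in control, at 7 to 12 and 15 to 25 counts.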

Other observations

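The deposited annotation assigns genes to transcription factor families. Of 489 tested genes in its zinc-finger class, which holds the KLF and EGR genes, edgeR called 64 higher (13.1%) and 19 lower (3.89%), with a median log2 fold change of 0.38. Of 1152 tested genes in any of its transcription factor families, 226 were called higher (19.6%) and 96 lower (8.33%), with a median of 0.27. Over all tested genes 22.4% were called higher and 18.7% lower. These counts were added after seeing the data, and the difference between the shares was not tested.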
